A study of Homo sapiens with 6 samples.

Results

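NRCAM and 8 other cell adhesion genes of the nervous system were followed in U87MG cells treated with RSL3: NCAM1, L1CAM, CHL1, NFASC, CNTN1, ALCAM, CADM1 and CDH2. These 9 genes were picked by symbol from the 65988 gene identifiers in the files. NRCAM was picked because its count rose with RSL3, so its own values are given as a description with no test. The other members were taken as its relatives and as adhesion molecules of neural cells, to see whether NRCAM rose alone. U87MG is an established human glioblastoma line, grown here without genetic change (genotype WT in the labels). Both groups were the same line in the same medium. The control group received vehicle (n = 3 libraries) and the treated group 2 µM RSL3 (n = 3 libraries), for 24 h by the study's legend. RSL3 inhibits GPX4, the enzyme that removes lipid peroxides, and is used to induce ferroptosis.

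Neural adhesion molecules are membrane proteins that hold cells to each other or to the matrix and pass signals inward. The L1 family, made of NRCAM, L1CAM, CHL1 and NFASC, has immunoglobulin and fibronectin domains outside the cell and a short tail that binds ankyrin inside. NCAM1, ALCAM and CADM1 are other immunoglobulin-type adhesion molecules, CNTN1 is a contactin anchored by a lipid, and CDH2 (N-cadherin) is a calcium-dependent cadherin. They guide axons, build the node of Ranvier and synapses, and several are also made by glioma cells.

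Poly(A) RNA was sequenced, and the authors counted reads per gene on exons without regard to strand. Total counts ranged from 27813462 to 43306335 per library, and intervals below cover only the spread among these libraries. The study's methods speak in general of biologically independent experiments or samples, but neither they nor the labels say whether these RNA replicates were separate cultures, so p-values measure the spread between these samples, which may be technical. All genes with enough reads were tested together with edgeR's quasi-likelihood test, and a gene is called at an adjusted p under 0.05. Of the 16105 genes tested, 25.6% were called, 12.9% higher and 12.7% lower in treated cells. Counts were scaled by TMM library sizes to a common size and are called normalized counts, and differences are given as RSL3 over control on the log2 scale. In bulk RNA, a change in the RNA of each cell and a change in how many cells carry it cannot be told apart.

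NRCAM did not rise alone. NCAM1 and ALCAM also rose, by much smaller folds, while NFASC, L1CAM, CHL1, CADM1 and CDH2 did not pass the test and CNTN1 was too low to be tested. Of the 7 tested members besides NRCAM, 2 were called, both higher, which is 28.6% beside 25.6% of all genes. That share is near the background and is no result about the members as a group. NRCAM more than doubled, and since it was picked for its rise nothing is read from that. None of the other 7 tested members doubled or halved, beside 1.32% of all genes tested that were called and changed that much (0.658% of all genes upward). Without NRCAM, the groups did not overlap in 3 of the 7, beside 38.6% of all genes in either direction. NCAM1 and ALCAM were higher without overlap, as were 19.3% of all genes, and CDH2 was lower.

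**Figure D1:**
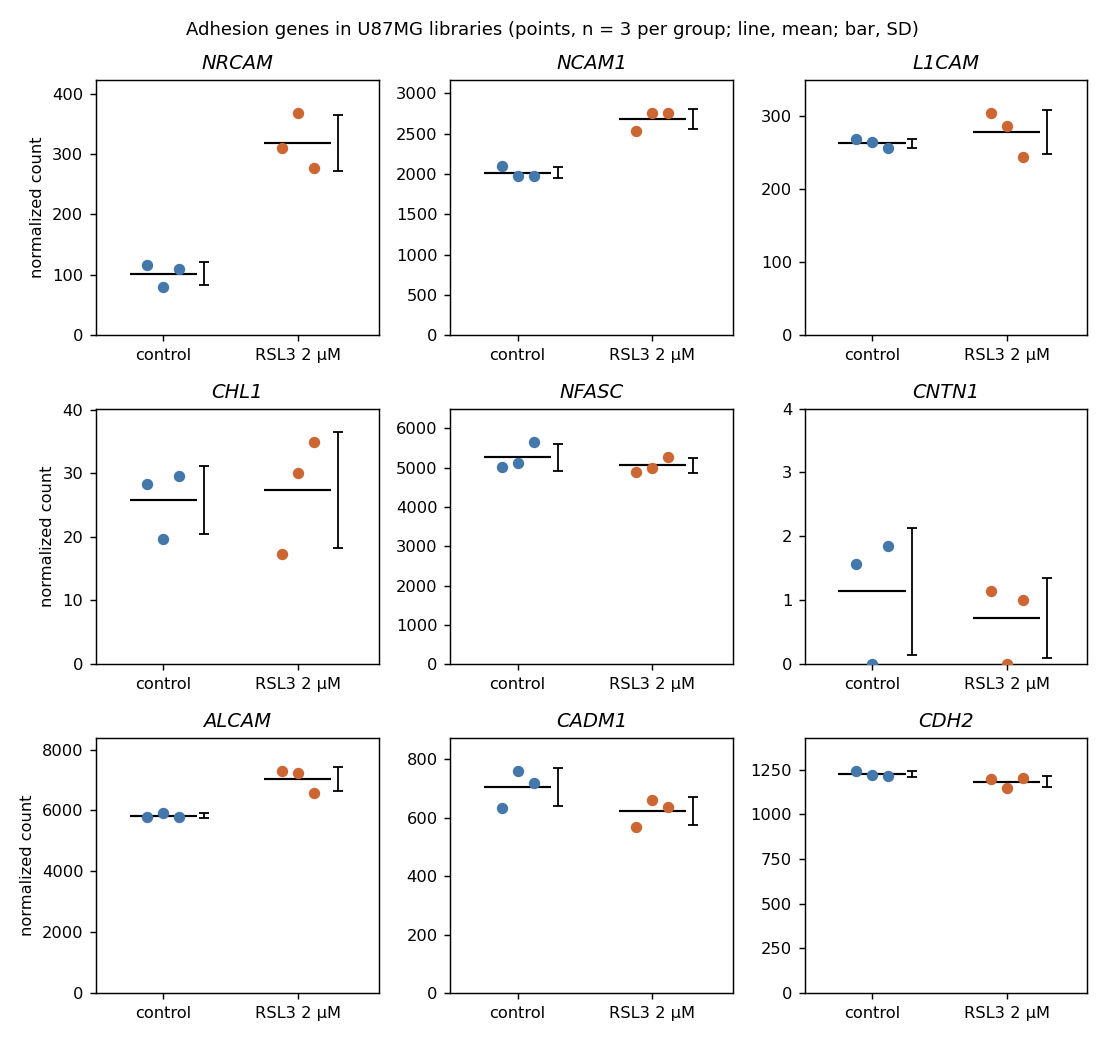
Normalized counts of the 9 adhesion genes, one panel per gene, in control (blue) and RSL3-treated (orange) U87MG libraries. Points are libraries in the order of replicates 1 to 3, lines are means and bars are SD (n = 3 per group). In NRCAM, NCAM1 and ALCAM the RSL3-treated points lie above the control points, and CNTN1 stays under 2 normalized counts.

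NRCAM (ENSG00000091129, minus strand of chromosome 7 of GRCh38, 108147623 to 108456717) encodes the neuron-glia related member of the L1 family, which takes part in axon guidance and in clustering channels at the node. Control replicates 1, 2 and 3 held 116, 79.98 and 109 normalized counts of NRCAM. Replicates 1, 2 and 3 under RSL3 held 310.5, 368 and 277. The lowest treated library thus lay well above the highest control library. The means were 102 ± 19.2 (SD, n = 3) and 318 ± 46.1 (SD, n = 3), a log2 fold change of 1.62 (standard error, SE, 0.14), or 3.08-fold. These values rest on 65 to 148 reads per control library and 270 to 354 reads per treated library. No exon base of NRCAM is shared with another gene of the GENCODE v44 annotation, so counting without strand leaves its reads unambiguous as far as the annotation used by the authors has the same exons.

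RefSeq lists 3 start sites for NRCAM, and the gene counts do not say which of them was used. The 250 bases before each start were searched on both strands for letters of common regulatory motifs: TGANTCA for AP-1, TGACGTCA for CRE, TGACNNNGC for ARE, CACGTG for the E-box, GGGCGG for the GC box, and CCAAT. TCF/LEF letters were CTTTGAA or its forms ending in GAT, GTA and GTT. ARE and AP-1 letters can overlap. The windows of the most upstream NRCAM start and of a start further inside the gene are shown because they differ so plainly. That of ALCAM, a member that rose less, stands beside them. Each is written 5′ to 3′ on the strand of its gene, from the RefSeq table of GRCh38.p14, with the matched letters of any of these motifs in capitals. The first is chr7:108456437-108456669 (minus strand), without 17 bases that an annotated exon covers. It lies before its RefSeq start but within the GENCODE span of NRCAM, which begins further upstream. The second is chr7:108243386-108243635 (minus strand) and the last is chr3:105366659-105366908 (plus strand).
NRCAM, upstream start: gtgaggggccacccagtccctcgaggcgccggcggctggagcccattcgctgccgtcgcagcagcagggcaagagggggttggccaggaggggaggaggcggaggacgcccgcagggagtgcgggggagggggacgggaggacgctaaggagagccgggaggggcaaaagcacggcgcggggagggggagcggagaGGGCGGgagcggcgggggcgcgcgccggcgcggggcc
NRCAM, start inside the gene: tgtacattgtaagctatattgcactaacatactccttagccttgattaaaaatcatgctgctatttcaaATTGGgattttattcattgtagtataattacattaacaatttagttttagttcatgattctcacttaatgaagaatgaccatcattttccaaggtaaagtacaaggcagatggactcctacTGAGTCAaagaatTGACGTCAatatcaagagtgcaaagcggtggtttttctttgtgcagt
ALCAM: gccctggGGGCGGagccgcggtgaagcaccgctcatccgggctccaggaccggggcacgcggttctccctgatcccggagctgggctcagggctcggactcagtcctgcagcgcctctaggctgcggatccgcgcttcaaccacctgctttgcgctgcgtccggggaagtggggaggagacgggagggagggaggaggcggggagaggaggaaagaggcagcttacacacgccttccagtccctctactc

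The window of the upstream NRCAM start was rich in G and C (78.1%). That of the start further inside the gene held 33.2% G and C, beside a median of 58% over all windows. The start inside the gene had AP-1 letters 60 bases and CRE letters 47 bases before it. Of all 35116 RefSeq windows of this length, 6.57% held the AP-1 letters, 1.65% the CRE letters and 0.0513% both. That last share was worked out for this pair alone, the pair found in an NRCAM window, so its rarity is no result. Among the 15 windows of the 7 members in the table, 2 held AP-1 letters, 1 held CRE letters, 1 held TCF/LEF letters and 6 held a GC box. CCAAT letters stood in 5 of these windows, and ARE or E-box letters in 0 of 15. The 15 windows are not all separate: those of L1CAM overlap and share their GC boxes. Annotated exons cover 246 of 250 bases in a CHL1 window and 176 in each L1CAM window. They also cover 129 bases in an NRCAM window that is not shown and 120 in an NFASC window. Over all windows, 11.96% held TCF/LEF letters, 42.6% a GC box, 32.0% CCAAT, 10.9% ARE and 6.34% E-box letters. A match describes the letters only, and no window was listed for NCAM1 or CADM1.

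NFASC (ENSG00000163531, plus strand of chromosome 1, 204828651 to 205022822) encodes neurofascin, the L1 family member of the axon initial segment and the node. It was abundant, at 5010, 5119 and 5657 normalized counts in control libraries. The treated libraries held 4900, 4997 and 5284, so the groups overlapped. The log2 fold change was -0.06 (SE 0.04, 95% interval -0.14 to 0.03, edgeR adjusted p = 0.371). L1CAM (ENSG00000198910, minus strand of chromosome X, 153861514 to 153886173), the founding member of the family, had 269, 265 and 256 normalized counts in control libraries and 305, 287 and 245 in treated ones. The treated libraries spread to both sides of the control libraries. Its log2 fold change was 0.08 (SE 0.11, 95% interval -0.14 to 0.30, edgeR adjusted p = 0.653). Other annotated genes, on both strands, cover 10.98% of the exon bases of L1CAM, and reads there cannot be assigned between them.

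CHL1 (ENSG00000134121, plus strand of chromosome 3, 196763 to 409417), the close homolog of L1, was near the floor of the test with 15 to 36 reads per library. Normalized counts were 28.3, 19.7 and 29.6 in control libraries and 17.2, 30.1 and 35.0 in treated ones. The groups overlapped fully, and the log2 fold change of 0.08 had a wide error (SE 0.34, 95% interval -0.63 to 0.79, edgeR adjusted p = 0.905). The interval of the fold reached from 0.646 to 1.72, so neither a moderate rise nor a moderate fall of CHL1 could be seen at this depth. Antisense genes cover 4.14% of its exon bases, with means under 1 normalized count. Within the L1 family, the groups overlapped in L1CAM, CHL1 and NFASC, and did not in NRCAM, which was picked for its rise. In 7 of the 7 tested members besides NRCAM, the 95% interval of the log2 fold change ended below 1.

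NCAM1 (ENSG00000149294, plus strand of chromosome 11, 112961275 to 113278436) encodes the neural cell adhesion molecule, which binds itself across cells and carries polysialic acid in the developing brain. Control libraries held 2092, 1977 and 1978 normalized counts. Treated libraries held 2533, 2755 and 2749.5, all above the control libraries. NCAM1 rose by a log2 fold change of 0.41 (SE 0.04, 95% interval 0.32 to 0.50, edgeR adjusted p = 2.68e-07), or 1.33-fold. Other genes cover 7.89% of its exon bases, all on the opposite strand. Of these, ENSG00000247416 had a mean of 35.8 normalized counts in control and 32.5 in RSL3-treated cells. TTC12-DT had 2.95 and 7.68, and NCAM1-AS1 0.262 and 0. The mean of NCAM1 rose by 663 normalized counts. Reads on the shared bases cannot be assigned without strand, and their part in this rise was not tested.

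ALCAM (ENSG00000170017, plus strand of chromosome 3, 105366909 to 105576900) encodes an activated leukocyte adhesion molecule (CD166) that binds itself and CD6 and is found on growing axons. It had 5792, 5923 and 5767 normalized counts in control libraries. It had 7299, 7239 and 6584 in treated libraries, again without overlap. ALCAM rose by a log2 fold change of 0.27 (SE 0.04, 95% interval 0.20 to 0.35, edgeR adjusted p = 9.30e-06), or 1.21-fold. No other gene shares its exon bases.

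CADM1 (ENSG00000182985, minus strand of chromosome 11, 115169218 to 115504957) encodes SynCAM1, an adhesion molecule of synapses and epithelia that is lost in many tumours. Its normalized counts were 634, 760.4 and 719 in control libraries and 569, 661 and 636 in treated ones. The lowest control library lay within the treated range. The log2 fold change was -0.17 (SE 0.08, 95% interval -0.34 to -0.01), and the edgeR adjusted p of 0.121 missed the threshold. Control replicate 1 weighed on this value: without it the log2 fold change was -0.25 and the edgeR adjusted p was 0.0384.

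CDH2 (ENSG00000170558, minus strand of chromosome 18, 27932879 to 28177946) encodes N-cadherin, the main cadherin of neural tissue and of mesenchymal tumour cells. It held 1243, 1218 and 1213 normalized counts in control libraries and 1199, 1145 and 1203 in treated ones. The treated libraries lay just under the control libraries, an ordering without overlap that 38.6% of all genes tested show in one direction or the other. The log2 fold change was -0.05 (SE 0.05, 95% interval -0.15 to 0.05, edgeR adjusted p = 0.504). An antisense gene, at means under 3 normalized counts, covers 3.58% of its exon bases. CNTN1 (ENSG00000018236, plus strand of chromosome 12, 40692439 to 41072415), a contactin of axons and glia, had 2, 0 and 2 reads in control libraries and 1, 0 and 1 in treated ones. It did not pass the filter on low counts, and a change of CNTN1 was not detectable at this depth.

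**Figure D2:**
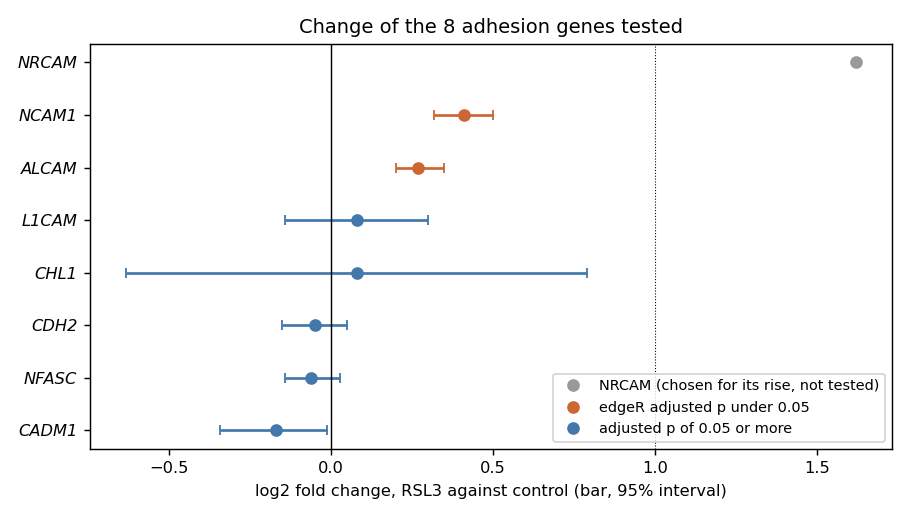
Log2 fold change of the 8 members tested, RSL3 against control, with the 95% interval of the edgeR fit as bars (n = 3 libraries per group). NRCAM, chosen for its rise, is plotted at 1.62 without an interval, NCAM1 and ALCAM (orange) lie at 0.41 and 0.27 with intervals above 0, and the dotted line marks a doubling.

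To set levels side by side, counts were also divided by the length of each gene's exons (RPKM, with TMM library sizes and the union of all annotated exons as length). In control cells the order from high to low was ALCAM, NFASC, NCAM1, CDH2, CADM1, L1CAM, NRCAM, CHL1 and CNTN1. Mean levels ran from 23.8 ± 0.342 RPKM (SD, n = 3) in ALCAM to 0.0648 ± 0.0135 RPKM (SD, n = 3) in CHL1, with CNTN1 at 0.00437 RPKM. In control cells, no pair of neighbours in this order overlapped in their library values. NRCAM stood at 0.374 ± 0.0708 RPKM (SD, n = 3) in control and 1.17 ± 0.169 RPKM (SD, n = 3) in RSL3-treated cells. With RSL3 its libraries (1.14, 1.35 and 1.02 RPKM) overlapped those of L1CAM (1.23, 1.16 and 0.987 RPKM), the one pair of neighbours that overlapped in treated cells. Even so, NRCAM was a minor transcript of the set, at 0.865% of the summed RPKM of the 9 genes in control and 2.34% in treated cells.

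The size of the rise in level told a different order from the fold. ALCAM gained 4.95 RPKM on average, NCAM1 1.53 RPKM and NRCAM 0.796 RPKM. Within the L1 family, NFASC was 16.1, 23.995 and 19.4 times as high as NRCAM in control replicates 1, 2 and 3 (ratio of RPKM), and 5.92, 5.09 and 7.16 times as high in the treated ones. NRCAM made up 3.47% to 5.04% of the summed RPKM of the family in control libraries and 10.8% to 14.3% in treated libraries, while the summed level went from 8.75 to 9.34 RPKM. NFASC remained the leading L1 family transcript in each of the 6 libraries. The sizes of these gains, ratios and shares depend on the length used for each gene.

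The 5 genes whose pattern over the 6 libraries was nearest to that of NRCAM were TRIM54, SPX, ENSG00000230882, GRM8 and IL11. Nearness was the root mean square difference between log2 CPM values centred on each gene's mean, among 11463 genes with a mean normalized count of at least 100. It was 0.206 for TRIM54, a tripartite motif protein of muscle, and 0.225 for SPX, which encodes the peptide spexin. It was 0.237 for the pseudogene ENSG00000230882, 0.247 for GRM8, a metabotropic glutamate receptor, and 0.249 for IL11, a cytokine of the interleukin-6 family. No member was as near: NCAM1 differed by 0.641 and ALCAM by 0.709, and the other tested members by 0.802 to 0.942. This measure largely follows the size of the fold. Since NRCAM was picked for its rise, members with smaller folds had to differ from it, and their distances are no separate result. By shape alone NCAM1 and ALCAM were closer, with Pearson's r to NRCAM of 0.96 and 0.93 over the same 6 libraries. Those values mostly restate that all 3 genes separate the groups, and all genes share these libraries.

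**Figure D3:**
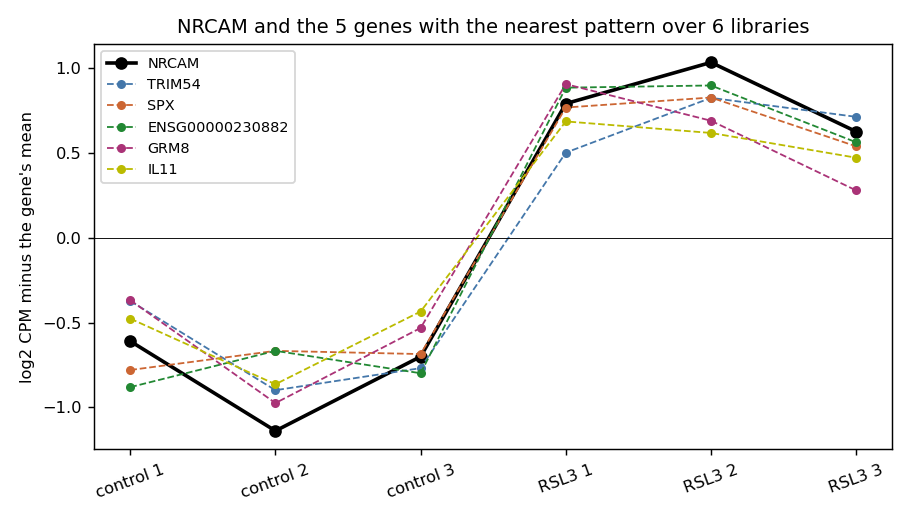
Log2 CPM minus each gene's mean over the 6 libraries, for NRCAM (black) and the 5 genes nearest to it. All 6 genes lie below 0 in the 3 control libraries and above 0 in the 3 RSL3-treated libraries, as the choice by nearness to NRCAM implies.

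Genes next to NRCAM were looked up after its values were seen. Within 500 kb of its start, 5 genes were tested and 1 was called, beside 25.6% of all genes. This was LAMB1, which encodes a laminin chain and whose start lies 453504 bases away, at 4863 ± 70.6 (SD, n = 3) normalized counts in control and 7443 ± 202 (SD, n = 3) in treated cells. LAMB1 rose by a log2 fold change of 0.61 (edgeR adjusted p = 2.30e-11). The nearest, the pseudogene RPL7P32 at 53516 bases, had a log2 fold change of 0.09 (edgeR adjusted p = 0.911). PNPLA8, THAP5 and DNAJB9, which lie 112949 to 113150 bases away, had log2 fold changes of 0.03, 0.11 and 0.02 and did not pass the test. Around NCAM1, ENSG00000247416 and TTC12 were tested and did not pass, with edgeR adjusted p of 0.755 and 0.914, and no gene was tested within that distance of ALCAM.

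More of the tested partners of the L1 family fell than rose with RSL3. Of 21 listed partners, 16 were tested, 2 rose and 8 fell, a called share of 62.5% beside 25.6% of all genes, with a median log2 fold change of -0.13 beside 0 for all genes. The largest change was in ANK1, which encodes an ankyrin, the adaptor that ties L1 tails to spectrin. Its normalized counts fell from 51.1, 51.7 and 75.8 in control libraries to 11.5, 16.6 and 19.97 in treated ones, a log2 fold change of -1.87 (SE 0.31, edgeR adjusted p = 9.04e-05). The more abundant ankyrin gene ANK2 fell by 0.18 on the log2 scale, from 6316 ± 199 to 5569 ± 29.8 normalized counts (SD, n = 3; edgeR adjusted p = 0.000226). ANK3, the ankyrin of the node, had a log2 fold change of -0.13 and did not pass (edgeR adjusted p = 0.170). EZR (ezrin), which links membrane proteins to actin, rose from 1541 ± 63.5 to 2072 ± 88.0 normalized counts (SD, n = 3), with a log2 fold change of 0.43 (edgeR adjusted p = 3.91e-07). TNC, the matrix protein tenascin-C that binds contactin, rose by 0.21 on the log2 scale. AP2M1, the clathrin adaptor subunit that takes up L1, fell by 0.22 on the log2 scale. No list was tested as a set, and abundant genes can pass at small changes. The called shares of the lists here and below are therefore not read as results about the lists.

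The proteases that cut these molecules from the cell surface moved in both directions. All 16 listed sheddases and gamma-secretase parts were tested, with 2 higher and 6 lower (50.0% called, all genes 25.6%, median log2 fold change -0.09). ADAM17, one of the main sheddases of L1 and NCAM, rose from 3753, 3801 and 3788 normalized counts to 5398, 5159 and 4855, a log2 fold change of 0.44 (SE 0.04, edgeR adjusted p = 1.43e-08). ADAM10, the other main one, fell from 7459, 7805 and 8088 to 6240, 6462 and 6738, a log2 fold change of -0.26 (SE 0.04, edgeR adjusted p = 1.02e-05). Thus the 2 enzymes changed in opposite directions, with no overlap between groups in either. MMP14 and BACE2 each fell by 0.19 on the log2 scale.

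Among 57 other immunoglobulin-type adhesion genes, 38 were tested, 12 rose and 8 fell (52.6% called, all genes 25.6%, median log2 fold change 0.09). ICAM1, a ligand of leukocyte integrins, rose from 1031 ± 31.4 to 1381 ± 75.8 normalized counts (SD, n = 3), a log2 fold change of 0.42 (edgeR adjusted p = 3.37e-06). ICAM5 (telencephalin), an adhesion molecule of neurons, rose from 318, 306 and 405 to 554, 472 and 575 normalized counts, a log2 fold change of 0.63 (edgeR adjusted p = 9.28e-05). PTPRM, an adhesive receptor phosphatase, rose by 0.20 on the log2 scale, and MCAM (CD146) fell by 0.25. These values place the rises of NCAM1 and ALCAM among several of similar size.

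Of 26 other cadherins and catenins, 15 were tested, 3 rose and 6 fell (60.0% called, all genes 25.6%, median log2 fold change -0.13). CDH2 itself did not pass, but a neural relative did: CDH4 (R-cadherin) rose from 126, 132 and 143 to 240.3, 249 and 256 normalized counts, a log2 fold change of 0.90 (SE 0.12, edgeR adjusted p = 8.54e-06). CDH3 (P-cadherin), an epithelial cadherin, fell from 307, 292 and 303 to 143, 155 and 193, a log2 fold change of -0.88 (SE 0.12, edgeR adjusted p = 1.11e-05). CDH13, a cadherin without a tail, rose by 0.20 on the log2 scale, and VCL (vinculin) fell by 0.21.

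Of 39 synaptic adhesion genes, 23 were tested, 7 rose and 2 fell (39.1% called, all genes 25.6%, median log2 fold change 0.02). The neurexin genes NRXN2 and NRXN3, presynaptic receptors for neuroligins, rose by log2 fold changes of 0.38 and 0.53 (edgeR adjusted p = 1.39e-06 and 3.65e-06). FLRT2, a ligand of Unc5 receptors and latrophilins, rose from 8683 ± 304 to 11476 ± 385 normalized counts (SD, n = 3), a log2 fold change of 0.40. Its relative FLRT3 fell from 128, 112 and 164 to 48.3, 40.5 and 62.9, a log2 fold change of -1.41 (SE 0.20, edgeR adjusted p = 1.87e-05).

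Enzymes that decorate NCAM1 were looked at beside it. Of 10 genes for polysialic acid and the HNK-1 sugar, 5 were tested and 1 rose (20% called, all genes 25.6%). This was NANS, the synthase of sialic acid (log2 fold change 0.22, edgeR adjusted p = 0.000449). The median log2 fold change was 0 over the 5. ST8SIA2 and ST8SIA4, the polysialyltransferases, were too low to be tested, with means under 8 normalized counts in both groups.

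NRCAM and L1CAM are known as genes that beta-catenin can switch on, and L1CAM as one that the repressor REST holds down in cells other than neurons. Of 18 beta-catenin targets, 12 were tested, 2 rose and 3 fell (41.7% called, all genes 25.6%, median log2 fold change -0.17). AXIN2, the usual readout of the pathway, had a log2 fold change of -0.06 (edgeR adjusted p = 0.870), MYC rose by 0.26, and CD44, TCF7 and SOX4 fell by 0.39, 0.37 and 0.64 on the log2 scale. Of 10 genes of the REST complex, 9 were tested, and EHMT2, the other, had a count of 0 under its identifier in all 6 libraries. How reads of EHMT2 were mapped was not examined, so this 0 is not read as absence of its RNA. Of the 9, 2 rose (22.2% called, all genes 25.6%, median log2 fold change 0.06). These were HDAC2, up by 0.13, and RCOR1, up by 0.15 on the log2 scale (edgeR adjusted p = 0.00959 and 0.0274). Single libraries decided both calls: RCOR1 did not pass without control replicate 1, control replicate 3 or RSL3 replicate 2 (adjusted p = 0.109, 0.0815 and 0.224), nor HDAC2 without RSL3 replicate 1 (adjusted p = 0.0728). SOX4 did not pass without RSL3 replicate 1 either (adjusted p = 0.0546). REST held 1510 ± 99.0 normalized counts in control and 1495 ± 66.5 in treated cells (SD, n = 3).

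**Figure D4:**
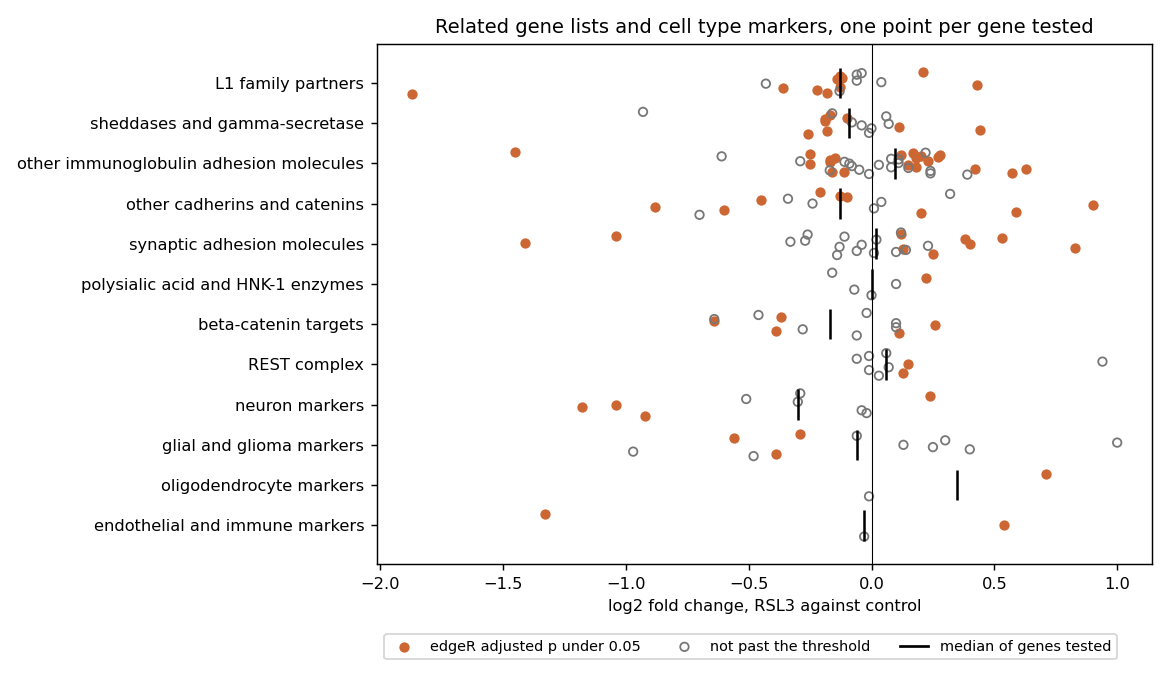
Log2 fold change, RSL3 against control, of each gene tested in 12 lists of related genes and cell type markers. Orange points passed the edgeR test at an adjusted p under 0.05, open points did not, and black lines are medians. L1 family partners lie mostly below 0 with ANK1 at -1.87, and synaptic adhesion genes spread from FLRT3 at -1.41 to values above 0.5.

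Neuron markers were examined because NRCAM is best known from neurons. Of 15, 9 were tested, 1 rose and 3 fell (44.4% called, all genes 25.6%, median log2 fold change -0.30). The 15 markers summed to 11788 to 12210 normalized counts in control and 11513 to 11914 in treated libraries. SNAP25, SCG2 and GAP43, of the synapse, secretory granule and growth cone, fell by log2 fold changes of -1.04, -1.18 and -0.92 (edgeR adjusted p = 4.84e-05, 7.79e-05 and 0.000173). SYT1 rose by 0.24 on the log2 scale. MAP2, a microtubule protein of dendrites, made up most of that sum, at 10475 ± 174 normalized counts in control and 10296 ± 226 in treated cells (SD, n = 3), with a log2 fold change of -0.02 that did not pass (edgeR adjusted p = 0.612). ELAVL4 and INA, which define neurons, were at 0 in all 6 libraries, and RBFOX3 and STMN2 were under 10 normalized counts. The label glioblastoma was checked with 14 glial and glioma markers, of which 11 were tested. Of these, 3 fell and 8 did not pass (27.3% called, all genes 25.6%, median log2 fold change -0.06). Their levels were mixed. VIM and CD44 were abundant, and GFAP was low at 95.1 to 117 normalized counts in control libraries. Control means were 660 in SLC1A3, 640 in SOX9, 295 in OLIG2, 190 in SLC1A2 and 153 in NES. FABP7 (37.3), ALDH1L1 (12.1), PDGFRA (10.8), S100B (0.672) and SOX2 (0.308) were lower, and AQP4 was at 0. These levels alone do not settle the label. The 14 markers summed to 94348 to 95775 normalized counts in control libraries and 75293 to 78857 in treated ones. Most of that sum was VIM and CD44. The drop came through VIM, CD44 and SLC1A3, which fell by 0.29, 0.39 and 0.56 on the log2 scale.

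Of 8 oligodendrocyte markers, 2 were tested and 1 rose (50.0% called, all genes 25.6%, median log2 fold change 0.35). It was MBP, which rose by 0.71 on the log2 scale (edgeR adjusted p = 0.00185). The list summed to 3177 to 3350 normalized counts in control and 3242 to 3364 in treated libraries. Nearly all of that sum was CNP, an enzyme of myelin that other cells also make, at 3175 ± 83.2 normalized counts in control and 3154 ± 63.1 in treated cells (SD, n = 3; log2 fold change -0.01, edgeR adjusted p = 0.895). SOX10 and OLIG1 were at 0. Of 10 endothelial and immune markers, 3 were tested (66.7% called, all genes 25.6%, median log2 fold change -0.03). VWF fell by 1.33 on the log2 scale and KDR rose by 0.54, a call lost without RSL3 replicate 2 (edgeR adjusted p = 0.0599), and the list summed to 179 to 211 normalized counts in control and 202 to 204 in treated libraries. The part of any of these markers in the changes of NRCAM, NCAM1 and ALCAM was not tested.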

How the data were processed

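Whole-number read counts per gene, not normalized, were deposited by the authors for each of 6 libraries. Reads had been trimmed with Trimmomatic 0.36 and Fastp, aligned to GRCh38.p4 with HISAT2, sorted with SAMtools 1.3.1 and counted with HTSeq-count 0.6.1p1 on exons without strand. The annotation release is not given in the sources used here. The study used DESeq2 after surrogate variable analysis, with the number of surrogate variables not stated.

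Symbols were matched through a table of gene names (56434 of 65988 identifiers). Exon lengths, overlaps and coordinates come from GENCODE v44 on GRCh38. The main test ran in edgeR 4.0.16 under R 4.3.3: filterByExpr with a minimum count of 10, TMM, quasi-likelihood F test, Benjamini-Hochberg adjustment over the 16105 genes tested, threshold 0.05, no covariates. Alternatives used DESeq2 1.42.0 and svaseq of sva 3.50.0 for which a gene needed a mean above 1 normalized count. The code was tested on simulated data.

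The members and the 12 gene lists were chosen with earlier results of these data known. In each list, up to 4 called genes with the smallest p are named, with markers whose level checks a cell type. MAP2, CNP, REST, EHMT2, AXIN2, ANK2, ANK3, the polysialyltransferases and genes neighbouring members are named for their roles or levels, after their values were seen. Replicates of 1 group were not identical: between pairs, counts differed by 2.43 to 5.58 chi-square per gene, where sampling noise alone gives about 1.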

Additional observations from a re-analysis of the deposited data

How the results depend on the processing

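Results were recomputed with DESeq2 size factors, total counts, other filters, DESeq2 with 0, 1 or 2 surrogate variables, edgeR with 1 surrogate variable, the replicate number as a block, each library left out, and an adjusted p under 0.01. NCAM1 and ALCAM kept their calls in each of the 15 refits and at the stricter threshold, and CADM1 gained one without control replicate 1. The log2 fold change of NRCAM lay between 1.50 and 1.73, of NCAM1 between 0.39 and 0.45 (largest adjusted p 8.24e-06) and of ALCAM between 0.25 and 0.32 (largest adjusted p 0.000232). With a library left out, CHL1 ranged from -0.13 to 0.31 and NFASC from -0.09 to 0.00. The sign of CHL1 turned without control replicate 2 (-0.06) or RSL3 replicate 3 (-0.13), and that of NFASC without control replicate 3 (0.00). The cause was not tested.

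With 2 surrogate variables DESeq2 called 2453 genes in place of 4123, 5 sheddase genes in place of 8, 13 immunoglobulin adhesion genes in place of 20, 3 beta-catenin targets in place of 5, and 1 gene each of the REST complex and of the endothelial and immune markers. SOX4, RCOR1 and KDR lost their calls there. At an adjusted p under 0.01, 2691 genes were called, with 1 in each of those last lists. With a library left out, the REST complex gave 1 to 2 calls, endothelial and immune markers 1 to 2 and polysialic acid genes 1 to 2 (a second call without RSL3 replicate 1). With the replicate block, 4633 genes and 2 polysialic acid genes were called. Same-numbered libraries correlated weakly in their deviations from the group means (r = 0.022 to 0.074), with 5 of 6 libraries closest to their own number. Neither these values nor the labels settle whether the number pairs libraries.

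With the longest transcript as length, control levels were 36.3 RPKM in ALCAM, 14.9 in NFASC, 10.2 in NCAM1, 8.94 in CDH2, 2.38 in CADM1, 1.50 in L1CAM, 0.445 in NRCAM and 0.0965 in CHL1, in an unchanged order. In treated cells NRCAM (1.39 RPKM) then stood below L1CAM (1.59 RPKM) and not above it. With this length the mean gains were 7.56 RPKM in ALCAM, 3.34 in NCAM1 and 0.947 in NRCAM. The ratios of NFASC to NRCAM and the shares of summed RPKM were worked out with the exon union only. They would differ with this length, which raised NFASC more than NRCAM. By Pearson's correlation, 0 of the 5 genes nearest to NRCAM were the same. Depth limits CHL1 and CNTN1 most.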
